A study of Mus musculus with 7 samples.

Results

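A list of 10 genes of the MHC class II system was followed in purified Paneth cells (PCs), which sit at the bottom of the crypts of the small intestine and secrete antimicrobial peptides. The genes were taken by symbol (H2-Aa, H2-Ab1, H2-Eb1, H2-DMa, H2-DMb1, H2-DMb2, H2-Oa, Cd74, Ciita and Ctss) and matched by Ensembl identifier to a table of raw read counts with 55414 identifiers. All 10 were found, and 8 of them had enough reads to be tested. PCs of C57BL/6J mice were sorted 15 h after an injection of PBS, the control, or of tumor necrosis factor (TNF), a pro-inflammatory cytokine, and total RNA was sequenced with single-end reads. There were 3 PBS and 4 TNF libraries, each from a different mouse. The TNF dose, the age and sex of the mice, the antibodies of the sort, the stretch of intestine used and any processing dates were not stated in the labels or methods used here, and batches could not be examined.

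MHC class II molecules are pairs of an α and a β chain that show peptides from endosomal proteins to CD4+ T cells. The invariant chain, encoded by Cd74, escorts the pair to endosomes, where cathepsin S (Ctss) trims it, and the DM pair (H2-DMa with H2-DMb1 or H2-DMb2) then exchanges the remaining fragment for a peptide, a step that the DO pair (H2-Oa with H2-Ob) restrains. The coactivator CIITA switches the genes on without touching DNA itself, through factors that sit on short promoter elements named the X and Y boxes. Class II molecules are best known from dendritic cells, B cells and macrophages, and intestinal epithelial cells can also carry them. Mice of the C57BL/6 background have a defective gene for the α chain of the E molecule, so H2-Eb1 encodes a β chain without its usual partner.

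Of the 10 genes, 7 lie within the MHC on chromosome 17. In the GRCm39 build with the GENCODE M39 annotation they are H2-Oa (chr17:34311314-34314328), H2-DMa (chr17:34338515-34358958), H2-DMb2 (chr17:34362197-34370529), H2-DMb1 (chr17:34372046-34379204), H2-Ab1 (chr17:34476663-34488393), H2-Aa (chr17:34493404-34506798) and H2-Eb1 (chr17:34504236-34535648). H2-Aa is on the minus strand and the other 6 are on the plus strand. Ciita (chr16:10297923-10347694) and Ctss (chr3:95433963-95463717) lie elsewhere on the plus strand, and the position of Cd74 is given with its values. The table identifies the genes as ENSMUSG00000036594 (H2-Aa), ENSMUSG00000073421 (H2-Ab1), ENSMUSG00000060586 (H2-Eb1), ENSMUSG00000037649 (H2-DMa), ENSMUSG00000079547 (H2-DMb1), ENSMUSG00000037548 (H2-DMb2), ENSMUSG00000024334 (H2-Oa), ENSMUSG00000024610 (Cd74), ENSMUSG00000022504 (Ciita) and ENSMUSG00000038642 (Ctss).

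The promoters are shown because the X and Y boxes are what the class II coactivator works through. RefSeq promoter sequences (build GRCm38.p6, 250 bases before the annotated start) were available for 7 of the 10 genes, and H2-Ab1, Cd74 and Ciita were not in the table. They were searched on both strands for an X-like element, CCNAGNNAC (N is any base), and a Y-like element, GATTGG. The X-like letters occurred in 14.5% and the Y-like letters in 14.6% of 32851 promoters, each counted on its own, whether or not it overlapped the other. An X-like element followed by a Y-like element on the same strand after 15 to 45 bases occurred in 57 promoters, or 0.174%. Among the class II genes, H2-DMb1 and H2-Oa held such a pair, with 27 bases between the elements in both. The last 150 bases before the start follow for both genes, 5′ to 3′ on the plus strand, from chr17:34153041-34153190 for H2-DMb1 and chr17:34092229-34092378 for H2-Oa (GRCm38.p6), with the elements in capitals.
H2-DMb1: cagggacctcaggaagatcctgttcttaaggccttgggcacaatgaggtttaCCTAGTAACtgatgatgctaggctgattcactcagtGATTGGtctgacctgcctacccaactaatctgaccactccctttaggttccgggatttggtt
H2-Oa: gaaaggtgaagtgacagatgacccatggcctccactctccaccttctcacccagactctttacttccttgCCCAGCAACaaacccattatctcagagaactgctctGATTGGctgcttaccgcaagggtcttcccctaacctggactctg

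For comparison, the same stretch is shown for H2-DMb2, the close copy of H2-DMb1, and for H2-Aa and H2-Eb1, chain genes with a Y-like element and no such pair. These 3 were chosen after the matches were seen. They are at chr17:34145099-34145248 (plus strand), chr17:34287824-34287973 (minus strand) and chr17:34305717-34305866 (plus strand) in GRCm38.p6, each is written 5′ to 3′ on the strand of its gene, and capitals mark Y-like matches, written as CCAATC where they lie on the opposite strand.
H2-DMb2: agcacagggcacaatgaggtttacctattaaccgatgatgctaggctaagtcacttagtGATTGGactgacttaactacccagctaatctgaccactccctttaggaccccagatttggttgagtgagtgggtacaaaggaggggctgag
H2-Aa: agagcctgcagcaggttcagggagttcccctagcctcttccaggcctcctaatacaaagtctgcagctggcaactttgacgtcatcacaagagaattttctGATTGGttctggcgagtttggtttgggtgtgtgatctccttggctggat
H2-Eb1: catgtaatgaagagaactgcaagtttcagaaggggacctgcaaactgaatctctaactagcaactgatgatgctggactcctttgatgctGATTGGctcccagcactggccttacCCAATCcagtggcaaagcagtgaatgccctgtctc

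In H2-DMb2 an X-like element began 192 bases before the start and the Y-like element 91 bases before it. In H2-Aa the corresponding positions were 180 and 49 bases, so both genes held both sets of letters outside the 15 to 45 base spacing. H2-Eb1 held the Y-like letters on both strands and no X-like letters. H2-DMa was listed with 2 promoters, of which one held a Y-like element 199 bases before the start and neither an X-like element. The promoter of Ctss held neither element in this window. A match is a description of letters and not a site of binding. The search took exact letters only, so a stretch that differed by even a letter was not counted. A missing match therefore does not show that a box is absent.

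**Figure D1:**
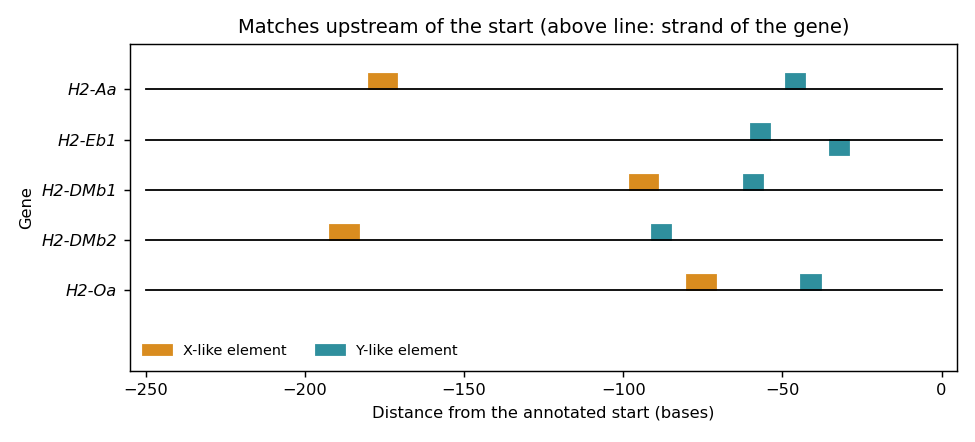
Positions of X-like (orange) and Y-like (teal) letters in the 250 bases before the annotated start of 5 class II genes; the x axis is the distance from the start in bases, and boxes above a line are on the strand of the gene. H2-DMb1 and H2-Oa hold an X-like element followed by a Y-like element after 27 bases.

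To ask how the class II genes responded to TNF, read counts were compared between the 4 TNF and the 3 PBS libraries. Of the 8 genes tested, 7 rose after TNF and none fell, while 29.5% of all 14329 tested genes rose and 30.1% fell. The 7 were the chain genes H2-Aa, H2-Ab1 and H2-Eb1, the invariant chain gene Cd74, the protease gene Ctss and the DM genes H2-DMa and H2-DMb1. In each of these 7 genes every TNF library lay above every PBS library, a separation found in 29.9% of all tested genes. Ciita was the only tested gene of the list that did not pass the test. The median log2 fold change was 1.91 over the 8 genes and 0.0017 over all tested genes. Values per library are CPM, read counts scaled to a common library size that was corrected by the TMM method of edgeR, and calls are from edgeR's quasi-likelihood test with a Benjamini-Hochberg adjusted p under 0.05.

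**Figure D2:**
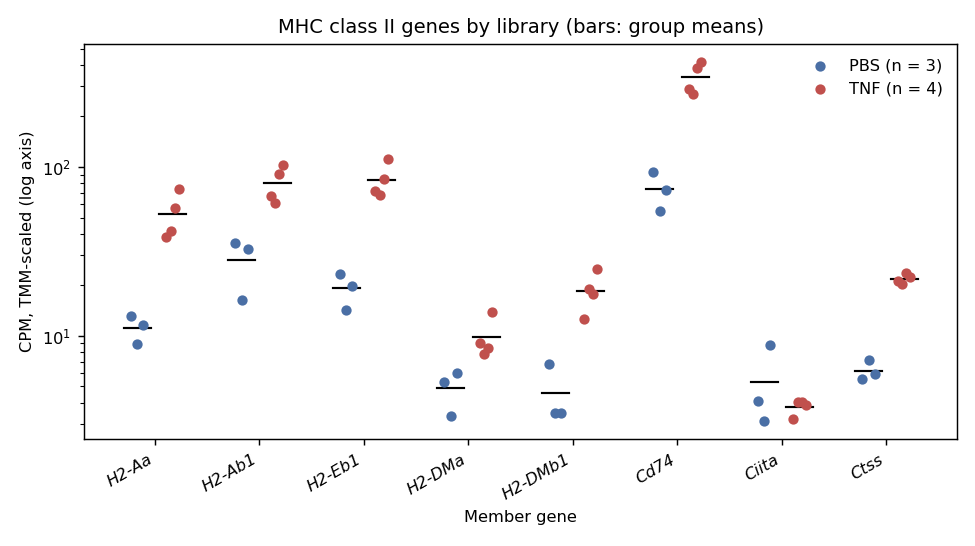
CPM (log axis) of the 8 tested class II genes in each library, with PBS (n = 3) in blue, TNF (n = 4) in red and bars at the group means. All TNF points lie above all PBS points for 7 genes, and the groups overlap for Ciita.

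The invariant chain gene Cd74 (chr18:60936899-60945731 in GRCm39, plus strand) had the most reads of the list in every library. Its level was 93.5, 54.6 and 72.6 CPM in PBS replicates 1 to 3, and 290, 269, 384 and 418 CPM in TNF replicates 1 to 4. The lowest TNF library was far above the highest PBS library. The mean went from 73.6 ± 19.4 (SD, n = 3) to 340 ± 72.4 CPM (SD, n = 4), a 4.63-fold difference (log2 fold change 2.21 ± 0.21 SE, edgeR quasi-likelihood, Benjamini-Hochberg adjusted p = 2.56e-06).

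Chain genes of the A molecule rose together with it. H2-Aa, the α chain gene, had 13, 8.91 and 11.6 CPM in PBS replicates 1 to 3 and 38.5, 41.4, 57.4 and 73.9 CPM in TNF replicates 1 to 4. Its groups were well separated, and TNF replicates 3 and 4 were the highest. The log2 fold change was 2.25 ± 0.24 (SE), or 4.74-fold, with an edgeR quasi-likelihood Benjamini-Hochberg adjusted p of 7.09e-06. The β chain gene H2-Ab1 had 35.4, 16.3 and 32.6 CPM after PBS and 67.1, 61.3, 90.7 and 103 CPM after TNF. PBS replicate 2 was lower than the other PBS libraries, and no library crossed between the groups. Its rise was 2.87-fold (log2 fold change 1.52 ± 0.28 SE, edgeR adjusted p = 0.00141).

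H2-Eb1, the β chain gene of the E molecule, had 23.2, 14.1 and 19.8 CPM in PBS replicates 1 to 3 and 71.5, 67.8, 85.1 and 111 CPM in TNF replicates 1 to 4. Its TNF values all exceeded the PBS values, with TNF replicate 4 the highest. The rise was 4.41-fold (log2 fold change 2.14 ± 0.21 SE, edgeR quasi-likelihood, Benjamini-Hochberg adjusted p = 3e-06). H2-Aa and H2-Eb1 share 118 annotated exon bases on opposite strands, which is 2.75% of the exon bases of H2-Aa and 4.55% of those of H2-Eb1, and whether counting used strand was not stated. The related chain gene H2-Eb2 had 0 counts in all PBS libraries and 4 over the TNF libraries.

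Genes for the late steps in the endosome rose as well. Ctss, the protease that trims the invariant chain, had 5.5, 7.18 and 5.94 CPM in PBS replicates 1 to 3 and 21.1, 20.2, 23.5 and 22.2 CPM in TNF replicates 1 to 4. The libraries of each group were close to each other and the groups lay far apart. The log2 fold change of Ctss was 1.80 ± 0.16 (SE), or 3.49-fold, with an edgeR quasi-likelihood Benjamini-Hochberg adjusted p of 4.12e-07. The DM β chain gene H2-DMb1 had 6.8, 3.46 and 3.5 CPM after PBS and 12.6, 19, 17.6 and 24.7 CPM after TNF. All of its TNF libraries exceeded PBS replicate 1, the highest control. It rose 4.05-fold (log2 fold change 2.02 ± 0.28 SE, edgeR adjusted p = 4.56e-05).

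The DM α chain gene H2-DMa had the smallest rise of the 7 genes. Its values were 5.32, 3.36 and 5.99 CPM in PBS replicates 1 to 3 and 9.07, 7.84, 8.46 and 13.9 CPM in TNF replicates 1 to 4. The groups did not overlap, although the lowest TNF library was close to the highest PBS library. The log2 fold change was 1.00 ± 0.27 (SE), with a 95% interval of 0.43 to 1.58 and an edgeR quasi-likelihood Benjamini-Hochberg adjusted p of 0.00496. H2-DMa shares 510 annotated exon bases, 11.8% of its own, with Brd2 on the other strand, and Brd2 rose by 0.37 ± 0.10 (SE) on the log2 scale (edgeR, adjusted p = 0.00542). The part of reads from this overlap in the value of H2-DMa was not tested.

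H2-DMb2 had 0 counts in all 7 libraries, where 3 counts, the upper limit that a count of 0 allows, correspond to 0.153 to 0.196 CPM. Such limits cover counting error only. H2-DMb1 and H2-DMb2 are related copies, and how reads that match several places were counted was not stated. In the annotated protein-coding transcripts, 254 of the 2004 distinct windows of 75 bases in H2-DMb2 also occurred in H2-DMb1, so 87.3% of its windows were its own. Of the windows of H2-DMb1, 19.1% also occurred in H2-DMb2. H2-Oa, the α chain of DO, had 1 count in TNF replicate 3 (0.0535 CPM) and 0 in the other 6 libraries, and H2-Ob, its β chain partner, had 0 in all 7. H2-DMb1 and H2-Oa, which carry the X-like and Y-like pair printed above, differed in that H2-DMb1 was read in every library and rose, and H2-Oa was at the limit of detection.

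Ciita, which encodes the coactivator, had 4.08, 3.11 and 8.86 CPM in PBS replicates 1 to 3 and 3.19, 4.07, 4.02 and 3.86 CPM in TNF replicates 1 to 4. All TNF libraries lay inside the range of the PBS libraries, and PBS replicate 3 stood above all others. The counts behind these values summed to 294 after PBS and to 260 after TNF. The log2 fold change was -0.50 ± 0.34 (SE), with a 95% interval of -1.23 to 0.23 and an edgeR quasi-likelihood Benjamini-Hochberg adjusted p of 0.222. Without PBS replicate 3 the log2 fold change was 0.07 ± 0.32 (SE, edgeR adjusted p = 0.863), so its direction rested on this library. Ciita shares 5.73% of its exon bases with Dexi on the other strand, and Dexi, at -0.85 ± 0.16 (SE) on the log2 scale, fell (edgeR, adjusted p = 0.00047).

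Summed over the list, the level was 187, 111 and 161 CPM in PBS replicates 1 to 3 and 513, 490, 671 and 771 CPM in TNF replicates 1 to 4. The sums did not overlap, and their mean went from 153 ± 38.4 (SD, n = 3) to 611 ± 133 CPM (SD, n = 4). The order within a group was similar from gene to gene. PBS replicate 2 was the lowest PBS library for 7 of the 8 tested genes, and TNF replicate 4 was the highest TNF library for 6 of the 8. TNF replicate 4 also had the lowest TMM factor (0.842), which raises the CPM of all its genes, so this order depends in part on the scaling. In bulk RNA a change in the number of cells that carry a transcript and a change in the RNA per cell cannot be told apart.

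To compare levels between genes, CPM were divided by the kilobases of merged annotated exons. After TNF, Cd74 stood at 135 ± 28.8 CPM per kilobase (SD, n = 4), above H2-Eb1 at 32.3 ± 7.58 and H2-Ab1 at 31.3 ± 7.59, which did not differ beyond their spread. H2-Aa at 12.3 ± 3.8 and H2-DMb1 at 11 ± 2.95 CPM per kilobase were the next neighbors and overlapped too. Ctss (4.1 ± 0.264), H2-DMa (2.27 ± 0.636) and Ciita (0.343 ± 0.0367) followed, each below its neighbor by more than 1 SD. After PBS, Cd74 led at 29.2 ± 7.73 CPM per kilobase (SD, n = 3), before H2-Ab1 (10.9 ± 4) and H2-Eb1 (7.33 ± 1.77), which overlapped. H2-DMb1 (2.73 ± 1.14) and H2-Aa (2.6 ± 0.482) did not differ beyond their spread, nor did Ctss (1.17 ± 0.164) and H2-DMa (1.13 ± 0.316), and Ciita was last at 0.484 ± 0.279. With the length of the canonical transcript in place of merged exons, H2-Aa after TNF stood at 46.8 CPM per kilobase, next to H2-Eb1 at 49.4 and below H2-Ab1 at 66.3, so the middle of the order depends on the length used.

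Whether the genes rose to the same extent was asked with ratios within a library, which do not depend on how libraries are scaled. The log2 ratio of H2-Aa to H2-Ab1 was -1.44, -0.87 and -1.49 in PBS replicates 1 to 3 and -0.80, -0.56, -0.66 and -0.47 in TNF replicates 1 to 4. All TNF libraries lay above all PBS libraries, and the group means differed by 0.65. The log2 ratio of Cd74 to H2-Ab1 was 1.40, 1.74 and 1.15 after PBS and 2.11, 2.13, 2.08 and 2.03 after TNF. It lay in a narrow band after TNF, above all PBS libraries, and the group means differed by 0.66. For H2-DMa over H2-Ab1 the mean log2 ratio went from -2.48 ± 0.23 (SD, n = 3) to -3.04 ± 0.26 (SD, n = 4), with all TNF libraries below all PBS libraries. Over H2-K1, a classical class I gene, the log2 ratio of H2-Ab1 went from -3.37 ± 0.59 (SD, n = 3) to -2.71 ± 0.39 (SD, n = 4), and 3 of 4 TNF libraries exceeded all PBS libraries.

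Exact two-sided permutation tests over the 35 assignments of 7 libraries to groups of 3 and 4 gave p = 0.0571 for each of the first 3 ratios, the smallest p that doubling the smaller tail allows here, so this test could not reach 0.05. Adjusted over the 4 ratios, it gave p = 0.0762 for these 3 and 0.114 for H2-Ab1 over H2-K1 (exact permutation). When assignments were instead counted by the absolute difference of means, an alternative added after the data were seen, the exact permutation p of the first 3 ratios was 0.0286, or 0.0381 adjusted over the 4. The call on these 3 ratios therefore rests on how the 2 sides of the test are counted.

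**Figure D3:**
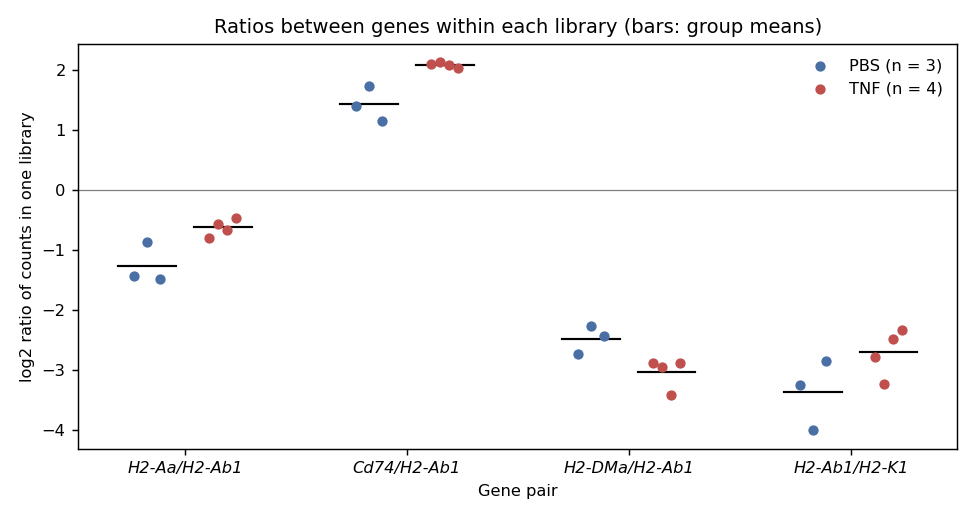
Log2 ratio of the counts of a pair of genes within each library (y axis) for 4 pairs (x axis), with PBS (n = 3) in blue, TNF (n = 4) in red and bars at the group means. The ratios H2-Aa/H2-Ab1 and Cd74/H2-Ab1 are higher and H2-DMa/H2-Ab1 is lower in every TNF library than in every PBS library.

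Other genes of the pathway were read from 7 lists with 49 genes, of which 41 were tested. After TNF 23 of them rose, 9 fell and 9 did not pass the test, with a median log2 fold change of 0.53. Over all tested genes the shares were 29.5% higher and 30.1% lower. The counts and the median include Cd40, among those that rose, and Cxcr4, among those that fell, which passed the filter on low counts only through the group where they were high, so no comparison with these shares is drawn.

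Of 10 promoter-binding and coactivating factors, 7 fell, 2 rose and Kat2b, an acetyltransferase gene, was at -0.18 ± 0.13 (SE), with a median log2 fold change of -0.5. For all tested genes the shares were 30.1% lower and 29.5% higher. RFX binds the X box, and of its subunit genes Rfxank fell (log2 fold change -0.79 ± 0.20 SE, edgeR quasi-likelihood, Benjamini-Hochberg adjusted p = 0.00343), as did Rfx5 (-0.50 ± 0.17), while Rfxap rose (0.52 ± 0.20, edgeR adjusted p = 0.0355). NF-Y binds the Y box, and of its subunit genes Nfyb (-0.60 ± 0.13) and Nfya (-0.52 ± 0.15) fell and Nfyc rose (0.54 ± 0.16). Creb1, whose product binds within the same promoter region, fell by 1.09 on the log2 scale, from 67.5 ± 5.08 (SD, n = 3) to 31.6 ± 9.48 CPM (SD, n = 4). The acetyltransferase genes Crebbp and Ep300 fell with log2 fold changes of -0.40 ± 0.10 and -0.50 ± 0.10 (SE). Some of these calls rested on 1 library or on the scaling. Both genes that rose lost their call when libraries were scaled by total counts (edgeR adjusted p = 0.178 for Rfxap, at 0.34, and 0.0994 for Nfyc, at 0.37). Rfx5 was not called without PBS replicate 3 (-0.45) or TNF replicate 2 (-0.48), Nfya without PBS replicate 2 (-0.42) and Nfyc without PBS replicate 3 (0.45). Rfxap was called in 2 of the 7 fits that left out a library, and was at 0.50 without PBS replicate 1, 0.41 without PBS replicate 3, 0.51 without TNF replicate 2, 0.46 without TNF replicate 3 and 0.44 without TNF replicate 4.

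Of 10 genes known to act upstream of Ciita, 9 were tested, of which 7 rose and 1 fell, with a median log2 fold change of 0.79. Over all tested genes 29.5% rose and 30.1% fell. Ifngr2, a subunit of the interferon-γ receptor, had 52, 54.4 and 51.9 CPM in PBS replicates 1 to 3 and 240, 309, 319 and 326 CPM in TNF replicates 1 to 4. The other receptor subunit gene, Ifngr1, had 49.9, 46.3 and 45.2 CPM after PBS and 205, 180, 208 and 205 CPM after TNF. Neither showed any overlap between the groups, and the log2 fold changes were 2.50 ± 0.13 and 2.08 ± 0.11 (SE). Socs1, an inhibitor of JAK kinases, rose by 3.02 ± 0.22 (SE) on the log2 scale, from 1.74 ± 0.299 (SD, n = 3) to 14.2 ± 1.6 CPM (SD, n = 4). The kinase genes Jak1 (0.44 ± 0.10) and Jak2 (1.32 ± 0.15) and the transcription factor genes Irf1 (0.79 ± 0.10) and Irf8 (0.53 ± 0.13) rose as well. Irf2, whose product binds the interferon-responsive promoter of Ciita together with IRF1, fell (log2 fold change -1.72 ± 0.15 SE, edgeR quasi-likelihood, Benjamini-Hochberg adjusted p = 4.76e-07). Irf4 had 0 counts in all 7 libraries.

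In the endosomal processing list, whose median log2 fold change over its 9 genes was 1.24, 6 genes rose and none fell, and the 6 all encode proteases. Among all tested genes 29.5% rose and 30.1% fell. The cathepsin genes Ctsl (2.48 ± 0.22), Ctsh (1.82 ± 0.12), Ctsz (1.81 ± 0.18) and Ctsb (1.32 ± 0.11) rose, as did Sppl2a (1.24 ± 0.14), which cleaves the last fragment of the invariant chain in the membrane, and the legumain gene Lgmn (0.71 ± 0.21). Ctsl, the cathepsin that trims the invariant chain in thymic epithelium, went from 29.7 ± 9.57 (SD, n = 3) to 166 ± 29.5 CPM (SD, n = 4). The thiol reductase gene Ifi30 was at -0.23, the aspartic protease gene Ctsd at 0.14 and the cystatin C gene Cst3, an inhibitor of cathepsins, at -0.21. Without PBS replicate 3 the value of Cst3 was -0.39 and passed the test (edgeR adjusted p = 0.0143).

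Of the 6 turnover and transport genes 5 were tested and 2 rose, near the 29.5% of all tested genes. Rab7, a late endosome GTPase gene (1.02 ± 0.12), and the tetraspanin gene Cd63 (0.62 ± 0.17) were those that rose. Marchf8, a ubiquitin ligase gene for class II molecules, was at 0.10, Ap1m2 at -0.12 and Lamp1 at 0.12, and Marchf1 had 1 count over all libraries. CD74 also forms a receptor for the cytokine MIF with CD44 and CXCR4. Mif (0.95 ± 0.20) and Cd44 (1.30 ± 0.12) rose, Cxcr4 fell with a log2 fold change of -3.84 ± 0.63 (SE), from 4.33 ± 0.284 (SD, n = 3) to 0.305 ± 0.343 CPM (SD, n = 4), and the MIF homolog gene Ddt was at -0.20. Cxcr4 passed the filter on low counts only through its PBS libraries, so its direction was set by the filter. Its log2 fold change ran from -4.94 to -3.49 over the 14 alternative fits.

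Of 8 genes for ligands and partners that act beside class II on T cells, 4 had enough reads to be tested. Icosl, Tnfsf9 and Cd274 rose, and Cd40 passed the filter on low counts only through its TNF libraries, so its direction was set by the filter and is given as counts. Icosl, the ligand of ICOS, went from 2.92 ± 0.373 (SD, n = 3) to 18.2 ± 4.85 CPM (SD, n = 4), and Tnfsf9, the ligand of 4-1BB, from 0.747 ± 0.167 to 9.19 ± 1 CPM. Cd40, the receptor for the T cell ligand CD40L, had 1 count in the PBS group and 454 in the TNF group, a scaled ratio of 361 with a 95% exact binomial (Clopper-Pearson) interval of 64.4 to 1.43e+04 that covers counting error only and not the spread between mice. Cd274, which encodes PD-L1, rose (log2 fold change 1.16 ± 0.37 SE, edgeR quasi-likelihood, Benjamini-Hochberg adjusted p = 0.0155), but was not called without PBS replicate 1 (1.09) or TNF replicate 2 (0.83), or with scaling by total counts (0.97). The main co-stimulatory ligands of professional antigen-presenting cells were scarce, since Cd80 summed to 10 counts in the control group and 41 in the TNF group, and Cd86 to 0 and 2. Pdcd1lg2 and Tnfsf4 had 0 counts in all 7 libraries.

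**Figure D4:**
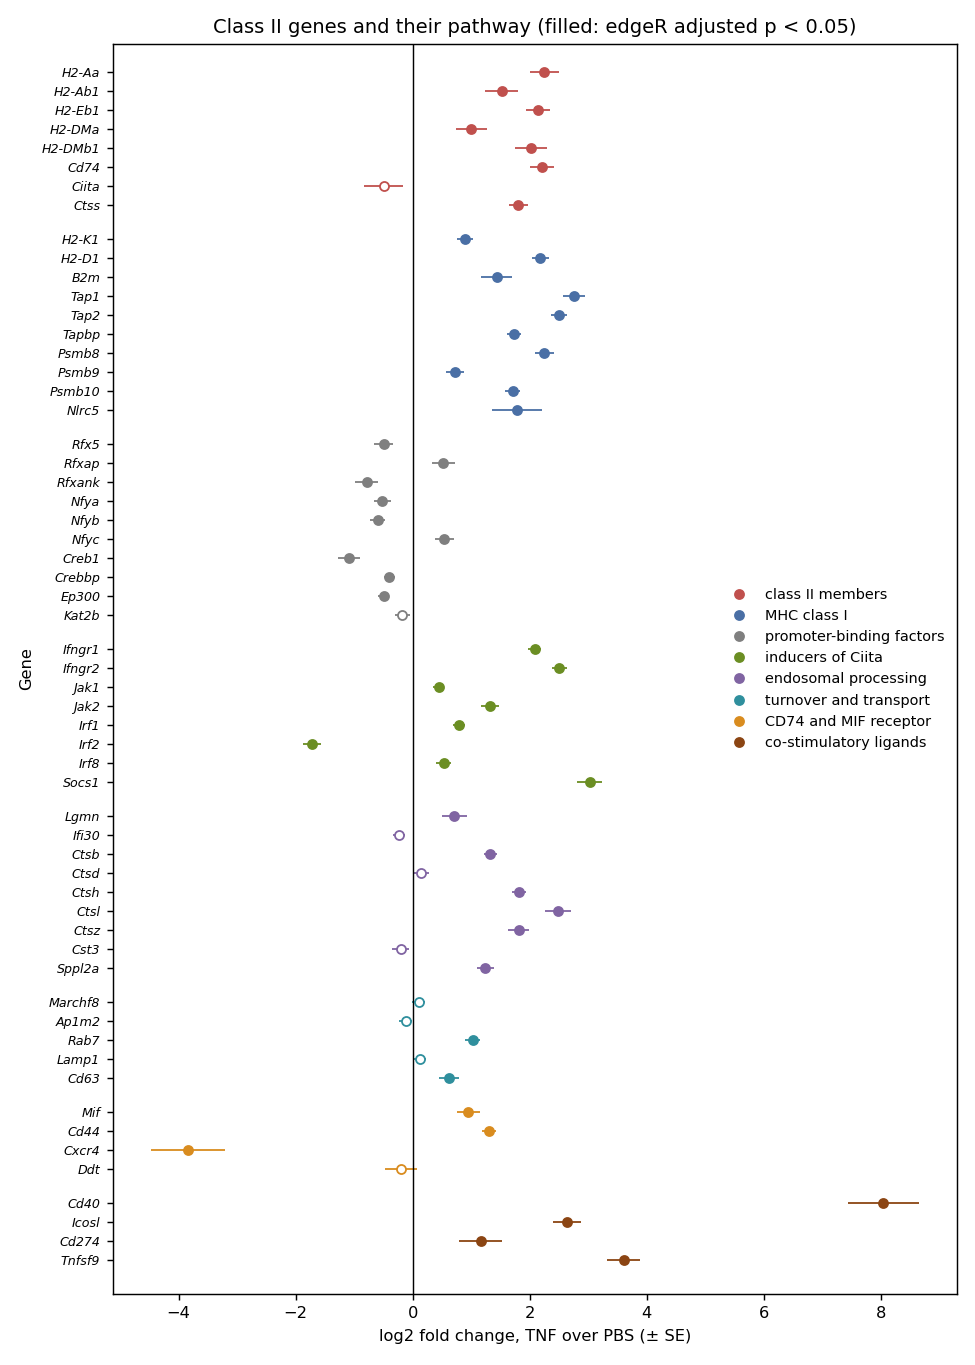
Log2 fold change of TNF over PBS (x axis, bars are SE) for tested genes of the class II list, of MHC class I and of the pathway lists (y axis). Filled points have an edgeR adjusted p under 0.05, and the fitted value of Cd40 rests on 1 count in the PBS libraries.

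MHC class I genes, which show peptides to CD8+ T cells, gave a reference within the same libraries. All 10 rose, with a median log2 fold change of 1.75, while 29.5% of all tested genes rose and their median was 0.0017. The 10 included H2-D1 (2.18 ± 0.14), H2-K1 (0.89 ± 0.14), B2m (1.43 ± 0.26) and the peptide transporter gene Tap1 (2.76 ± 0.19). Nlrc5, the class I counterpart of Ciita, had 1.85, 0.611 and 3.02 CPM in PBS replicates 1 to 3 and 6.38, 7.43, 4.77 and 6.61 CPM in TNF replicates 1 to 4. Its groups did not overlap, and it rose (log2 fold change 1.78 ± 0.42 SE, edgeR quasi-likelihood, Benjamini-Hochberg adjusted p = 0.00225). Whether Ciita and Nlrc5 responded differently was not tested. The summed class I level was 749 to 1030 CPM in the PBS libraries and 2510 to 3150 CPM in the TNF libraries.

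As class II is best known from leukocytes, 31 leukocyte markers were read in the same libraries. Of these, 11 had 0 counts in every library, among them Ms4a1 and Cd22 of B cells, Flt3, Clec9a, Xcr1, Cd209a and Ccr7 of dendritic cells, C1qc and Fcgr1 of macrophages and Cd3e of T cells. The summed level of all 31 was 28.3 to 39 CPM in the PBS and 22.9 to 32 CPM in the TNF libraries. Most of it came from Ptprc (means of 16.4 CPM after PBS and 8.5 CPM after TNF) and Lyz2 (9.72 and 8.29 CPM). Of 7 leukocyte markers tested, Cd79b and Zbtb46 were called higher and Ptprc and C1qa lower, and over all tested genes 29.5% were higher and 30.1% lower. Cd79b passed the filter on low counts only through its TNF libraries and C1qa only through its PBS libraries, so the filter set the direction of both. The summed B cell list was at 0.247 to 0.636 CPM in the PBS libraries and at 1.41 to 3.25 CPM in the TNF libraries, mostly through Cd79b (0.377 ± 0.113 to 1.94 ± 0.761 CPM, log2 fold change 2.33 ± 0.55 SE). The dendritic cell list was at 0.583 to 0.916 CPM after PBS and 1.46 to 2.22 CPM after TNF, mostly through Zbtb46, whose call was lost in 6 of 7 fits that left out a library, all but the one without TNF replicate 1 (log2 fold changes 0.98 to 1.31 over these fits, 1.15 with all libraries). Sums of T cell and pan-leukocyte markers were 11.6 to 26.3 and 7.72 to 14.1 CPM, and those of macrophage markers 11.4 to 17.6 and 10.2 to 14.4 CPM, after PBS and TNF. Ptprc, which encodes CD45, had a log2 fold change of -0.95 ± 0.33 (SE), which without PBS replicate 2 was -0.43 and not called, and it was also lost without TNF replicate 1 (-0.88), 2 (-0.82) or 4 (-0.91). C1qa fell (-2.60 ± 0.79) and was not called without PBS replicate 2 (-2.08), and it ran from -4.05 to -2.08 over the 14 alternative fits. The macrophage marker Cd68 was at 1.04 and not called with all libraries, but was called higher without PBS replicate 3 (1.76, edgeR adjusted p = 0.0212). With 5 counts in PBS replicate 1, Cd68 passed the filter only through its TNF libraries, so the filter set this direction too. The part of the B cell and dendritic cell markers in the class II result was not tested.

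**Figure D5:**
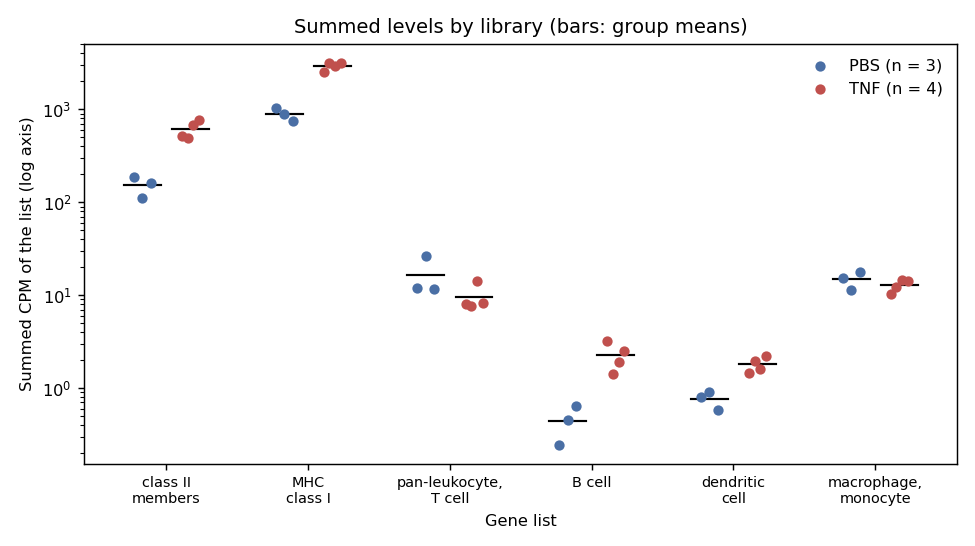
Summed CPM (log axis) of the class II genes, of MHC class I genes and of 4 leukocyte marker lists in each library, with PBS (n = 3) in blue, TNF (n = 4) in red and bars at the group means. The class II sum is 111 to 187 CPM after PBS and 490 to 771 CPM after TNF. The B cell and dendritic cell sums are at or below 3.25 CPM and are also higher in every TNF library than in every PBS library.

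The libraries held 15511455 to 19193721 counts. Paneth cell markers were abundant in both groups, with Lyz1 at 96500 ± 17900 CPM (SD, n = 3) in the control mice and 119000 ± 28100 CPM (SD, n = 4) in the TNF mice. Their summed level, carried mostly by Lyz1, Defa24 and Itln1, was 169000 to 270000 CPM after PBS and 161000 to 287000 CPM after TNF. The list was not uniform: of its 9 genes Mmp7 rose (log2 fold change 0.88 ± 0.21 SE), and Clps (-2.27 ± 0.43), Kit (-1.68 ± 0.11), Pnliprp2 (-1.39 ± 0.14) and Cd24a (-0.46 ± 0.17) fell. Cd24a was not called without PBS replicate 1 (-0.34), PBS replicate 2 (-0.43), TNF replicate 1 (-0.41) or TNF replicate 2 (-0.46). Marker lists of other epithelial cells were lower in the TNF libraries, with sums of 352 to 510 against 47.5 to 59.7 CPM for enterocytes, 6540 to 12700 against 5780 to 6520 CPM for goblet cells, 1230 to 2000 against 211 to 539 CPM for tuft cells and 3330 to 4630 against 1930 to 2670 CPM for stem cells. The goblet sum was carried by Muc2 (0.13 ± 0.22, not called), while Fcgbp (-5.62 ± 0.36), Zg16 (-4.59 ± 0.89), Clca1 (-2.86 ± 0.32) and Tff3 (-2.14 ± 0.24) fell. Zg16 passed the filter on low counts only through its PBS libraries. The enterocyte sum was carried by Anpep (-3.11 ± 0.14), and Fabp1 (-0.86 ± 0.62) was not called. Most of the stem cell sum came from Olfm4 (-1.09 ± 0.21) and Slc12a2 (0.08 ± 0.13, not called). Endothelial and stromal markers summed to at most 0.448 CPM. The part of these markers in the class II result was not tested.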

How the data were processed

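Sorted PCs were profiled by bulk RNA-seq in 3 PBS and 4 TNF libraries. The authors deposited raw counts, whole numbers of reads per gene with 1 column per library, and the unit was checked on the values. The submitters' processing notes name FastQC, Trimmomatic 0.39, STAR 2.7.10a, DESeq2 and the builds mm10 and mm39, with no role or order. No counting program, annotation or strand setting is named. Total counts ran from 15511455 to 19193721. The smallest chi-square per degree of freedom between libraries of one group was 16.7, so no pair agreed within sampling noise.

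Of 55414 identifiers, 54749 (98.8%) were found in the GENCODE M39 annotation of GRCm39, and the authors may have counted on another annotation. Tests ran in R 4.3.3 and edgeR 4.0.16, as a robust two-sided quasi-likelihood fit with TMM scaling and filterByExpr, on all 7 libraries without covariates. Benjamini-Hochberg adjustment ran over the 14329 genes left by the filter, with a threshold of 0.05. CPM use TMM-scaled sizes. Ratios within a library used counts with 0.5 added and exact permutation tests that double the smaller tail, as scipy does. Motifs were sought in the RefSeq promoter table (GRCm38.p6). Scripts were tested on simulated counts.

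The class II genes, lists and tests were chosen with earlier results of these data known. Named genes are the class II list, its pathway and class I lists, cell type markers, and the 5 genes most correlated with the class II mean over libraries. Overlapping neighbors (Brd2, Dexi) and promoters without the motif pair were named after their values were seen. Of the genes in these lists, 2 are counted but not reported by name here. Alternatives were size factors of DESeq2 1.42.0, total counts only, TMM without alpha-defensins and Lyz1, no filter, at least 1 CPM in 3 libraries, the DESeq2 test, the replicate number as a block, leaving out each library, no pseudocount, and, chosen after seeing the data, canonical transcript length and the other count of 2-sided permutations.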

Additional observations from a re-analysis of the deposited data

Results flagged for a closer look

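Among the 4 TNF libraries, 14 values were examined for a library far from the others by Dixon's ratio at its 95% limit, and 2 passed it. Chance alone flags about 1 in 20 such groups. H2-Oa had a ratio of 1, since its only count was in TNF replicate 3. The log2 ratio of H2-DMa to H2-Ab1 had a ratio of 0.852, through TNF replicate 3 at -3.42 against -2.96 to -2.88 in the other TNF libraries. With 3 libraries, the PBS group was not examined.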

How the results depend on the processing

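In all 14 alternative fits 7 class II genes rose and none fell, and the 10 class I genes rose. The number of all tested genes that rose ran from 3142 of 14329 (total counts only) to 4410 of 24572 (no filter on low counts). Log2 fold changes over these fits were 2.04 to 2.42 for Cd74, 2.03 to 2.37 for H2-Aa, 1.97 to 2.31 for H2-Eb1, 1.84 to 2.41 for H2-DMb1, 1.64 to 1.93 for Ctss, 1.24 to 1.72 for H2-Ab1 and 0.78 to 1.18 for H2-DMa, whose highest edgeR or DESeq2 adjusted p was 0.0298. Ciita ran from -0.77 to 0.07, was called in none of them and turned direction only without PBS replicate 3 (0.07). Scaling by total counts moved the median of all genes to -0.16, with 3142 genes higher and 4614 lower in place of 4229 and 4314, and gave 20 pathway genes higher and 12 lower. Under it Ctsd (-0.01), Marchf8 (-0.07) and Lamp1 (-0.04) changed sign, Rfxap, Nfyc, Cd274 (0.97) and Zbtb46 (0.99) lost their call, and Kat2b (-0.34), Ifi30 (-0.39), Cst3 (-0.36), Itln1 (-0.69) and Defa24 (-0.36) gained one. With no filter on low counts Itln1 (-0.54) gained a call and Zbtb46 (1.15, edgeR adjusted p = 0.111) lost its call, and Itln1 (-0.74) was also called without PBS replicate 3. Other sign changes, all of genes that were not called, came from leaving out a library. Over all 14 alternative fits Ctsd ran from -0.01 (also without PBS replicate 3) to 0.23 and Ang4 from -0.01 (without TNF replicate 4) to 0.34. Defa24 ran from -0.41 to 0.01 (without PBS replicate 1) and Lyz2 from -0.54 to 0.01 (without TNF replicate 1). Itgam, with 13 fits, ran from -0.20 to 0.79, with -0.01, -0.20 and -0.05 without PBS replicate 2, PBS replicate 3 and TNF replicate 1. Counting permutations by absolute difference left the ratio differences at 0.65, 0.66 and -0.56 and brought these 3 under the threshold (exact permutation, adjusted p = 0.0381).

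Whether same-numbered replicates of the groups shared a day or batch was not stated. Deviations of same-numbered libraries correlated at -0.299, -0.0314 and -0.174, and 0 of 3 PBS libraries correlated best with the TNF library of the same number. So few correlations cannot decide whether the numbers mark pairs. A fit with the replicate block, in which TNF replicate 4 has no partner, also gave 7 class II genes higher, with Ciita at -0.38 (edgeR adjusted p = 0.438), and called 21 pathway genes higher and 8 lower. Of all 14329 tested genes it called 3553 higher and 3578 lower. Under the block Rfxap (0.44), Nfyc (0.49), Rfx5 (-0.38), Mmp7 (0.78), Cd24a (-0.47), Ptprc (-0.84) and Zbtb46 (1.04) were not called (edgeR adjusted p = 0.136, 0.064, 0.105, 0.0622, 0.167, 0.0982 and 0.178).

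With canonical transcript length, places in the order of CPM per kilobase after PBS became 4 for H2-Aa (from 5), 5 for Ctss (from 6), 6 for H2-DMa (from 7) and 7 for H2-DMb1 (from 4). After TNF they became 2 for H2-Ab1 (from 3), 3 for H2-Eb1 (from 2), 5 for Ctss (from 6) and 6 for H2-DMb1 (from 5). The cause of these shifts lies in the lengths alone. Depth limits H2-DMb2, H2-Ob and H2-Oa: in a library with a count of 0, up to 3 counts, or 0.153 to 0.196 CPM, could go unseen, and H2-Oa had 1 count in TNF replicate 3.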

Other observations

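Over the 7 libraries, the tested genes outside the list whose log2 CPM ran most like the mean log2 CPM of H2-Aa, H2-Ab1, H2-Eb1 and Cd74 were Wac (Pearson r = 0.9944), Fdxacb1 (0.9941), Chst15 (0.9933), Stk17b (0.9932) and Wdr44 (0.9928). Their log2 fold changes after TNF were 0.45, 1.35, 0.59, 0.97 and 1.11. These correlations are a description: the points share the difference between the groups, and 947 of 14321 genes had an r over 0.95.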
